A study of Mus musculus with 2 samples.

Results

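The killer lectin-like receptors described here were Klra4, Klra7, Klra8, Klrb1b, Klrb1c, Klrc1, Klrd1, Klre1, Klrk1 and Klrg1, 10 of the 55450 genes in the count matrices. They were taken from a fixed list and matched by gene symbol, and all 10 were found in both libraries. Each library was made from liver tumour tissue of C57BL/6 mice that had received plasmids by hydrodynamic tail vein injection, a rapid large-volume injection that delivers DNA to hepatocytes. The NRAS.MYC.ND mice received 19 ug of a human N-Ras plasmid, 1 ug of a human c-Myc plasmid and 2 ug of a Sleeping Beauty transposase plasmid, and the AKT1.MYC mice received 10 ug of an Akt1 plasmid, 10 ug of a human c-Myc plasmid and 5 ug of the transposase plasmid. Both models therefore share c-Myc and the transposase, tumours were taken 14 weeks after injection in both, and there was no library from untreated liver. Each group is 1 library, so no difference between the models has a replicate check, and the animal, the dissociation and the tumour model cannot be told apart.

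Killer lectin-like receptors are type II membrane proteins that natural killer (NK) cells, innate lymphoid cells and some T cells use to sense other cells. Inhibitory members recognise self molecules such as MHC class I and signal through phosphatases, while activating members lack a signalling tail of their own and depend on adapter proteins such as DAP12 (Tyrobp) or DAP10 (Hcst). Ly49 receptors, encoded by the Klra genes, are switched on independently of each other in single NK cells, so that each cell carries its own combination. In the liver, conventional NK cells that depend on Eomes live beside group 1 innate lymphoid cells (ILC1), which carry Il7r and largely lack Eomes and most Ly49 receptors.

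All 10 genes lie on mouse chromosome 6 (GRCm38, GENCODE). Klrg1 stands apart at 122270596 to 122282882, on the minus strand. Klrb1c (128778485 to 128789215, minus strand) and Klrb1b (128813706 to 128826331, minus strand) are neighbours. Klre1 (129577905 to 129585827) and Klrd1 (129591782 to 129598775) follow on the plus strand, and Klrk1 (129610323 to 129623864) and Klrc1 (129666015 to 129678973) on the minus strand. The Ly49 genes Klra4 (130043731 to 130067271), Klra8 (130115226 to 130129898) and Klra7 (130218605 to 130233322) end the row, all on the minus strand. RefSeq promoter windows of GRCm38.p6 were matched for 8 of the 10 genes, those other than Klrd1 and Klrg1.

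The sequences upstream of the Klra genes are shown because this trio was highest in the same cell gates, as described below. Each is the 120 bases before the gene's annotated start, 5′ to 3′ on the minus strand, and capitals mark the exact runs of at least 10 bases that all 3 share. Klra7 and Klra8 each have a second RefSeq start, and the window at the outer end of the gene, chosen after the sequences were compared, is shown.
Klra4, chr6:130067272-130067391: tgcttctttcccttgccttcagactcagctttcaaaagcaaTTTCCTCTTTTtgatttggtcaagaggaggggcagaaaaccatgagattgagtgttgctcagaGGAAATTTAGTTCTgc
Klra7, chr6:130233323-130233442: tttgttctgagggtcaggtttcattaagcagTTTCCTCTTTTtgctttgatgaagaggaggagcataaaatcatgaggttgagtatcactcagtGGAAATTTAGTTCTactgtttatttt
Klra8, chr6:130129899-130130018: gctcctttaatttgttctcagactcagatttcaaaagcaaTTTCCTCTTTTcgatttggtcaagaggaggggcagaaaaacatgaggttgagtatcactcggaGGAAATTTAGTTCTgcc
The trio shared 2 such runs, the longest of 14 bases. Over 300-base windows (250 before the start to 50 after it), Klra4 and Klra8 were 86% identical, Klra4 and Klra7 73.7%, and Klra7 and Klra8 74.3%. With the inner start of Klra8 the identity to Klra4 was 57.7%, and with that of Klra7 it was 46.6%. None of the 3 windows at the outer starts held TGTGGT, the core that RUNX factors bind, TCACAC, a T-box half-site, or AGGAAG, on either strand. AGGAAG is a longer form of the ETS core GGAA. The shorter GGAA does occur in the longest shared run, and it was not counted over all windows. The window at the inner start of Klra7 held AGGAAG. Over all windows, TGTGGT was found in 16.8% of 32851 promoter windows of this length, TCACAC in 14.5% and AGGAAG in 35.4%. TGTGGT was present in the windows of Klrb1c, Klrc1, Klrk1 and 1 of those of Klre1, which says only that these letters occur there.

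Likeness in the transcripts limits how far some genes can be told apart. Of 441 windows of 60 bases in the last 500 bases of the transcript, where a 3′ library reads, 50.8% of those of Klrc1 also occurred in Klrc2, 23.1% of those of Klra7 in the pseudogene Klra13-ps, 6.35% of those of Klra8 in Klra3, Klra9 or Klra11-ps, and 2.49% of those of Klra4 in Klra1. Counts of Klrc1 and Klra7 are uncertain for this reason, by an amount that these shares do not measure and that was not tested. The other 6 genes shared none. Gm44511, a predicted gene on the same strand across Klrb1b and Klrb1c, had 0 UMIs in every gate.

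The matrices held raw counts of unique molecular identifiers (UMIs), each a tagged RNA molecule, with 42416125 UMIs in 6312 barcodes of NRAS.MYC.ND and 64516171 UMIs in 10766 barcodes of AKT1.MYC. Filters left 5666 and 9458 cells, whose median depth was 4246 and 1990 UMIs. Cells were assigned to gates by lineage markers that include none of the 10 receptors. A CD8 T cell had Cd8a or Cd8b1 and at least 2 UMIs of Cd3d, Cd3e, Cd3g or Trac. A cell of the NK/ILC gate had none of these and at least 2 of Ncr1, Txk, Eomes, Il2rb, Xcl1, Prf1 and Gzma. This gave 1049 CD8 T and 52 NK/ILC cells in NRAS.MYC.ND against 36 and 17 in AKT1.MYC, and all T, NK and ILC gates together held 26.4% and 1.07% of cells. The gate used for the values below counted a marker only above its share of the library's UMIs, a change made after seeing that the first gate left 34.6% of AKT1.MYC cells without a lineage. With this change 24.4% of AKT1.MYC cells and 8.84% of NRAS.MYC.ND cells still had no lineage. The first gate held 1035 and 46 cells in NRAS.MYC.ND but 18 and 2 in AKT1.MYC. Levels are CPM, a gene's UMIs in a gate over all UMIs of that gate, scaled to the usual common total, and 95% intervals, exact Poisson for counts, exact binomial for shares and conditional binomial for ratios, cover counting error only.

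The gates differed between the libraries in more than the receptors. In the NK/ILC gate, 9 of 12 lymphoid lineage markers were seen in both libraries, and the gate itself requires Cd3d, Cd3e and Cd3g to be at 0. Trbc2, a T cell receptor gene that the gate does not exclude, was seen in 25 of 52 cells of NRAS.MYC.ND (650 CPM). In AKT1.MYC it was seen in 7 of 17 cells (175 CPM). The 12 lymphoid markers summed to 4562 CPM in NRAS.MYC.ND against 2357 in AKT1.MYC. Phagocyte markers summed to 945 and 2664 CPM and epithelial markers to 2030 and 1820. In the CD8 T gate the lymphoid markers summed to 10843 and 4517 CPM, with Ncr1 at 0 in both, Cd3e was at 2172 and 469.7 CPM, phagocyte markers summed to 635 and 3006 CPM and epithelial markers to 1742 and 2059. The part of these differences in the ratios between libraries given below was not tested. Median depth was 3025 and 3503 UMIs per CD8 T cell and 2709 and 4564 per NK/ILC cell.

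**Figure D1:**
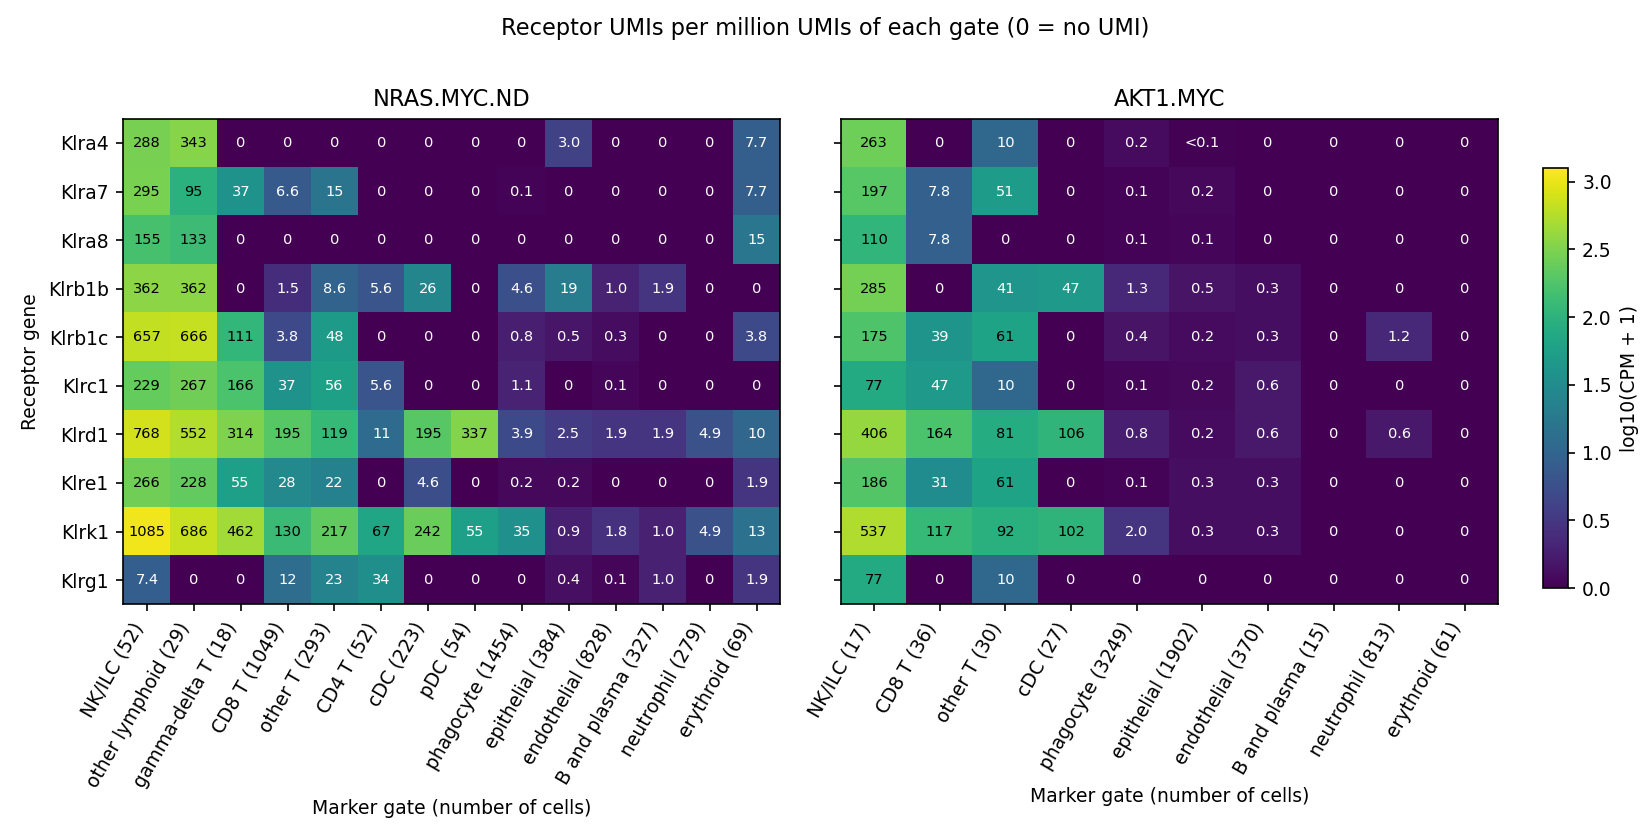
Level of each receptor gene (vertical axis) in each marker gate (horizontal axis, with cell numbers) for NRAS.MYC.ND and AKT1.MYC in CPM of the gate's summed UMIs. The NK/ILC gate holds values for all 10 genes in both libraries, Klrd1 and Klrk1 also stand out in dendritic cell gates, and Klrb1b is seen in NRAS.MYC.ND epithelial cells at 18.8 CPM.

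The Ly49 genes Klra4, Klra7 and Klra8 were at their highest levels in the NK/ILC gate and in the small group of lymphoid cells left without a subtype. Klra4 encodes Ly49D, an activating receptor that signals through DAP12. It was at 288 CPM in NRAS.MYC.ND NK/ILC cells (39 UMIs in 16 of 52 cells) and at 263 CPM in those of AKT1.MYC (24 UMIs in 5 of 17 cells). In CD8 T cells it was at 0 UMIs in both libraries, which allows up to 0.762 CPM in NRAS.MYC.ND and 23.5 CPM in AKT1.MYC. Klra8 encodes Ly49H, the activating receptor that recognises the m157 protein of mouse cytomegalovirus. It was at 155 CPM (21 UMIs in 11 cells) and 109.6 CPM (10 UMIs in 3 cells) in the NK/ILC gates, and in CD8 T cells had 0 UMIs in NRAS.MYC.ND and 1 UMI in AKT1.MYC. Klra7 encodes Ly49G, an inhibitory receptor for MHC class I. It was at 295 CPM (40 UMIs in 12 cells) and 197 CPM (18 UMIs in 7 cells) in NK/ILC cells. Klra7 was the member of the trio seen in NRAS.MYC.ND T cells, with 26 UMIs in 9 CD8 T cells, of which 1 cell held 8, 12 UMIs in other T cells and 2 in gamma-delta T cells.

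Lymphoid gates held 93.4% of the Klra7 UMIs of NRAS.MYC.ND, 63.6% of those of Klra8 (28 of 44) and 61.3% of those of Klra4 (57 of 93), and in AKT1.MYC 75.5%, 64.5% and 80.6%. Ungated cells of NRAS.MYC.ND held 15 UMIs of Klra4, 8 of Klra8 and 1 of Klra7. Klra4 had 17 UMIs in 5 epithelial cells of NRAS.MYC.ND, 9 of them in 1 cell, and Klra4, Klra7 and Klra8 had 4, 4 and 8 UMIs in its erythroid gate. In dendritic, plasmacytoid, B, neutrophil, endothelial and mesenchymal gates of NRAS.MYC.ND all 3 genes were at 0 UMIs.

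Klrb1c encodes NK1.1, the activating NKR-P1 receptor used to identify NK cells in C57BL/6 mice. In NRAS.MYC.ND it was at 657 CPM in NK/ILC cells (89 UMIs in 40 of 52 cells), close to its 667 CPM in other lymphoid cells (35 UMIs), and then fell in order to gamma-delta T cells at 111 CPM (6 UMIs), other T cells at 47.8 CPM (39 UMIs) and CD8 T cells at 3.81 CPM (15 UMIs in 10 cells). Counting intervals of gamma-delta and other T cells overlapped. In AKT1.MYC it was at 175 CPM in NK/ILC cells (16 UMIs in 10 of 17 cells), 61.0 CPM in other T cells (6 UMIs), 53.3 CPM in other lymphoid cells (2 UMIs) and 39.1 CPM in CD8 T cells (5 UMIs in 4 cells). The last 3 rest on so few UMIs that their order was not resolved.

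Klrb1b encodes NKR-P1B, the inhibitory counterpart, whose ligand is the lectin Clr-b encoded by Clec2d. Klrb1b was at 362 CPM in NK/ILC cells of NRAS.MYC.ND (49 UMIs in 26 cells) and at the same 362 CPM in its other lymphoid cells, against 285 CPM in NK/ILC cells of AKT1.MYC (26 UMIs in 12 cells). T cells nearly lacked it, with 6 UMIs in the 1049 NRAS.MYC.ND CD8 T cells (1.52 CPM) and 0 in those of AKT1.MYC. Lymphoid gates held only 23.8% of the Klrb1b UMIs of NRAS.MYC.ND (82 of 345) and 30.1% of those of AKT1.MYC. Conventional dendritic cells (cDC) held 62 UMIs in 43 of 223 cells (25.7 CPM) in NRAS.MYC.ND and 11 UMIs in 5 of 27 cells (46.9 CPM) in AKT1.MYC.

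The largest number of Klrb1b UMIs in any NRAS.MYC.ND gate was in epithelial cells, 105 UMIs in 58 of 384 cells (18.8 CPM), against 15 UMIs in 13 of 1902 cells (0.465 CPM) in AKT1.MYC. Cells with hepatocyte genes (Alb, Ttr, Cyp2e1, Hnf4a) carried 100 of them, in 53 of 258 cells at 28.6 CPM. Hepatocyte-gene cells of AKT1.MYC, 304 in number, had 0 UMIs. At the limit that these 0 UMIs allow, the level in NRAS.MYC.ND was 46.0-fold higher, with counting error of its 100 UMIs left out. Beside each 100 UMIs of the T cell gene Cd3e, epithelial cells of NRAS.MYC.ND held 133 UMIs of Klrb1b, where all its T, NK and ILC gates together held 0.817 and endothelial cells 6.72. In AKT1.MYC the epithelial cells held 115 (15 UMIs beside 13 of Cd3e) and the lymphoid gates 29.1. Cd3e is a limited guide here, since NK/ILC cells of NRAS.MYC.ND held 49 of the 82 lymphoid Klrb1b UMIs and 0 of Cd3e. The part of free RNA from lymphoid cells in the epithelial values was not tested. Thinned to 1500 UMIs per cell, 5.46% of hepatocyte-gene cells had a Klrb1b UMI, against 0.391% of endothelial cells and none of the B cells.

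Klrd1 (CD94) and Klrc1 (NKG2A) form the inhibitory pair that reads the MHC class Ib molecule Qa-1, encoded by H2-T23, and CD94 also pairs with activating NKG2 chains. Klrd1 was at 768 CPM in NK/ILC cells of NRAS.MYC.ND (104 UMIs in 37 of 52 cells), then 552 in other lymphoid cells, 337 in plasmacytoid dendritic cells (pDC), 314 in gamma-delta T cells, 195 in cDC, 195 in CD8 T cells (767 UMIs in 363 of 1049 cells) and 119 in other T cells. Its level in cDC thus differed from that in CD8 T cells by less than counting error, and the intervals of NK/ILC and other lymphoid cells, of other lymphoid cells and pDC, of pDC and gamma-delta T cells, and of gamma-delta T cells and cDC overlapped as well. In AKT1.MYC it was at 406 CPM in NK/ILC cells (37 UMIs in 12 of 17 cells), 164 CPM in CD8 T cells (21 UMIs in 11 of 36 cells) and 107 CPM in cDC (25 UMIs in 11 of 27 cells). Klrc1, in contrast, was at 0 UMIs in cDC and pDC of both libraries. It was at 229 CPM in NK/ILC cells (31 UMIs in 17 cells) and 36.8 CPM in CD8 T cells (145 UMIs in 103 cells) of NRAS.MYC.ND, and at 76.7 CPM (7 UMIs in 5 cells) and 47.0 CPM (6 UMIs in 5 cells) in AKT1.MYC. In gamma-delta and other T cells of NRAS.MYC.ND Klrc1 was at 166 CPM (9 UMIs) and 56.3 CPM (46 UMIs).

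Klre1 encodes an NK receptor that pairs with Klri1 or Klri2 and whose signal depends on that partner. It was at 266 CPM in NK/ILC cells of NRAS.MYC.ND (36 UMIs in 26 cells) and 186 CPM in AKT1.MYC (17 UMIs in 11 cells), and at 27.7 CPM (109 UMIs in 67 cells) and 31.3 CPM (4 UMIs in 3 cells) in CD8 T cells. It followed the lymphoid cells more closely than Klrd1, with 89.9% of its NRAS.MYC.ND UMIs in lymphoid gates against 52.5% for Klrd1 (1016 of 1936). The cDC of NRAS.MYC.ND held 11 of its UMIs, 8 of them in cells with Xcr1 or Clec9a.

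Klrk1 encodes NKG2D, the activating receptor for the stress-induced ligands of the Raet1, Ulbp1 and H60 families, which signals through DAP10 and DAP12. It was at 1085 CPM in NK/ILC cells of NRAS.MYC.ND (147 UMIs in 43 of 52 cells) and 686 in other lymphoid cells, followed by gamma-delta T cells at 462, cDC at 242 (585 UMIs in 178 of 223 cells), other T cells at 217, CD8 T cells at 129.6 (510 UMIs in 170 of 1049 cells), CD4 T cells at 67.2, pDC at 55.0 and phagocytes at 35.5 CPM. Neighbours in this order whose counting intervals overlapped were NK/ILC with other lymphoid cells, other lymphoid with gamma-delta T cells, cDC with other T cells, and CD4 T cells with pDC and pDC with phagocytes. In AKT1.MYC the order was NK/ILC cells at 537 CPM (49 UMIs in 15 of 17 cells), other lymphoid cells at 213, CD8 T cells at 117 (15 UMIs in 9 of 36 cells) and cDC at 102 (24 UMIs in 17 of 27 cells), and counting intervals of the last 2 overlapped. Only 41.8% of the Klrk1 UMIs of NRAS.MYC.ND (907 of 2172) and 39.3% of those of AKT1.MYC lay in lymphoid gates.

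Klrg1 encodes an inhibitory receptor that binds cadherins and marks mature NK cells and effector T cells. It had 1 UMI in the 52 NK/ILC cells of NRAS.MYC.ND (7.38 CPM), and its highest level in that library was in CD4 T cells at 33.6 CPM (6 UMIs in 3 of 52 cells), followed by other T cells at 23.3 CPM (19 UMIs) and CD8 T cells at 11.9 CPM (47 UMIs in 35 cells). Counting intervals overlapped between neighbours in this order. In AKT1.MYC it had 7 UMIs in 3 of 17 NK/ILC cells (76.7 CPM) and 0 UMIs in CD8 T cells, which allows up to 23.5 CPM. All 11 Klrg1 UMIs of AKT1.MYC and 89.0% of the 82 of NRAS.MYC.ND were in lymphoid gates.

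**Figure D2:**
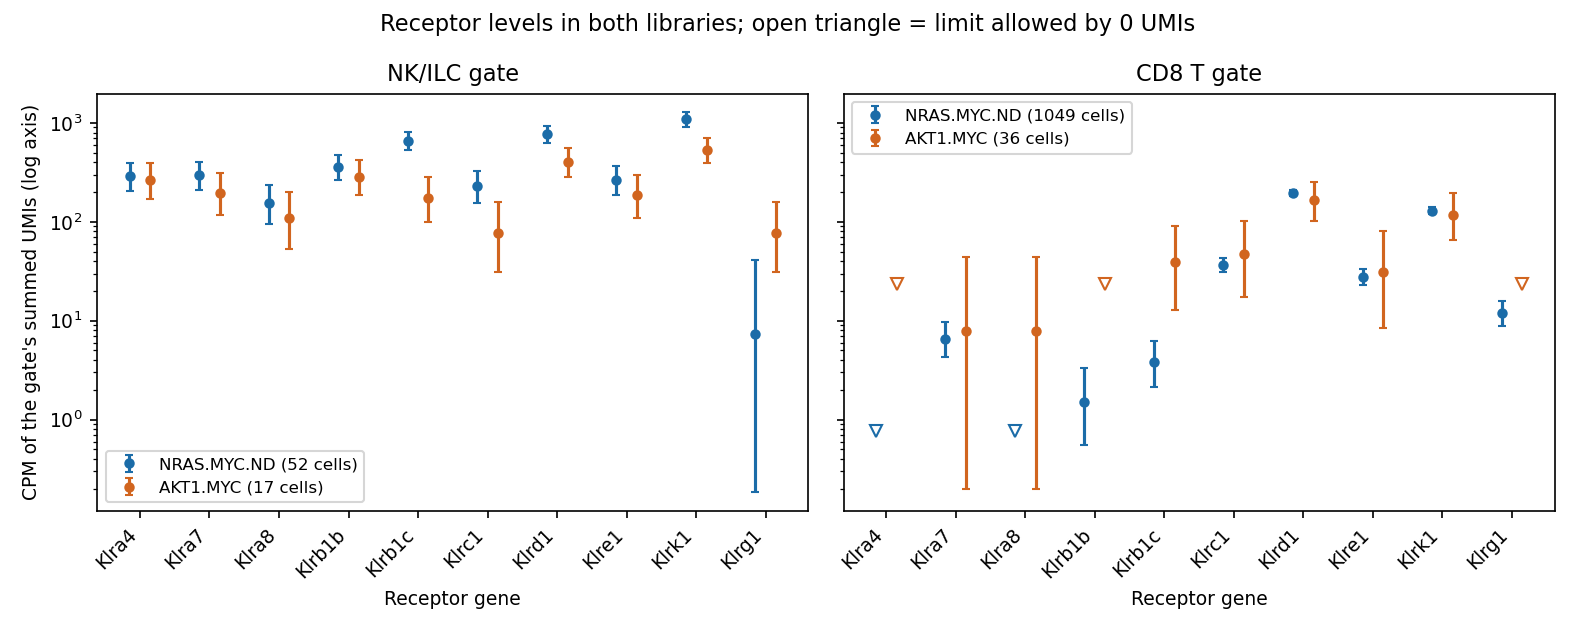
CPM of each receptor gene (log axis) in the NK/ILC and CD8 T gates, with points for the 2 libraries and bars for 95% Poisson intervals of counting error; open triangles mark the limit that 0 UMIs allow. In NK/ILC cells Klrk1 reaches 1085 CPM in NRAS.MYC.ND against 537 in AKT1.MYC, and Klra4 differs little between them, at 288 and 263.

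Among the non-lymphoid gates of NRAS.MYC.ND, dendritic cells held the most UMIs of Klrd1 and Klrk1, and their subsets differed in them. In NRAS.MYC.ND the 91 cDC with Cd209a, Clec10a or Mgl2, genes of type 2 dendritic cells, had Klrd1 at 371 CPM, Klrk1 at 217 and Klrb1b at 50.4. The 87 cDC with Xcr1 or Clec9a, genes of type 1 dendritic cells, had Klrd1 at 62.2, Klrk1 at 269 and Klrb1b at 10.9 CPM. Klrd1 was thus 5.97-fold and Klrb1b 4.61-fold higher in the first set, while Klrk1 differed by 1.24-fold the other way (log2 -0.31, -0.59 to -0.04). In pDC Klrd1 was higher than in cDC as a whole (log2 0.79, 0.45 to 1.11) and Klrk1 was lower (log2 -2.14).

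The part of free RNA from lymphoid cells in these values was not tested, and the T cell gene Cd3e is given beside them. Beside each 100 Cd3e UMIs, all T, NK and ILC gates of NRAS.MYC.ND held 10.1 UMIs of Klrd1 and 9.04 of Klrk1. Endothelial cells held 12.6 and 11.8, and B cells 15.4 and 7.69. The cDC held 1311 and 1625, and phagocytes 30.4 and 276. In AKT1.MYC the lymphoid gates held 68.5 and 65.4 and phagocytes 220 and 540, the latter from 5 Cd3e UMIs. Lymphoid lineage markers summed to 82.3 CPM in cDC of NRAS.MYC.ND, where 11 of 12 were seen, Ncr1 was at 0 and Cd3e was at 14.9 CPM, and to 8.52 CPM in those of AKT1.MYC, where 2 of 12 were seen and Cd3e was at 0.

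At an equal depth of 1500 UMIs, Klrd1 was seen in 66.0% of NK/ILC cells, 44.0% of type 2 gene cDC, 28.9% of pDC, 22.0% of CD8 T cells and 9.20% of type 1 gene cDC in NRAS.MYC.ND, against 0.697% of B cells and 0.522% of endothelial cells. For Klrk1 the shares were 72.3% of NK/ILC cells, 26.4% of type 1 and 22.0% of type 2 gene cDC, 10.6% of CD8 T cells and 3.85% of pDC, against 0.348% of B cells and 0 endothelial cells. Before thinning, median depth was 10298 UMIs in cDC, 4926 in pDC, 1944 in B and 7002 in endothelial cells.

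**Figure D3:**
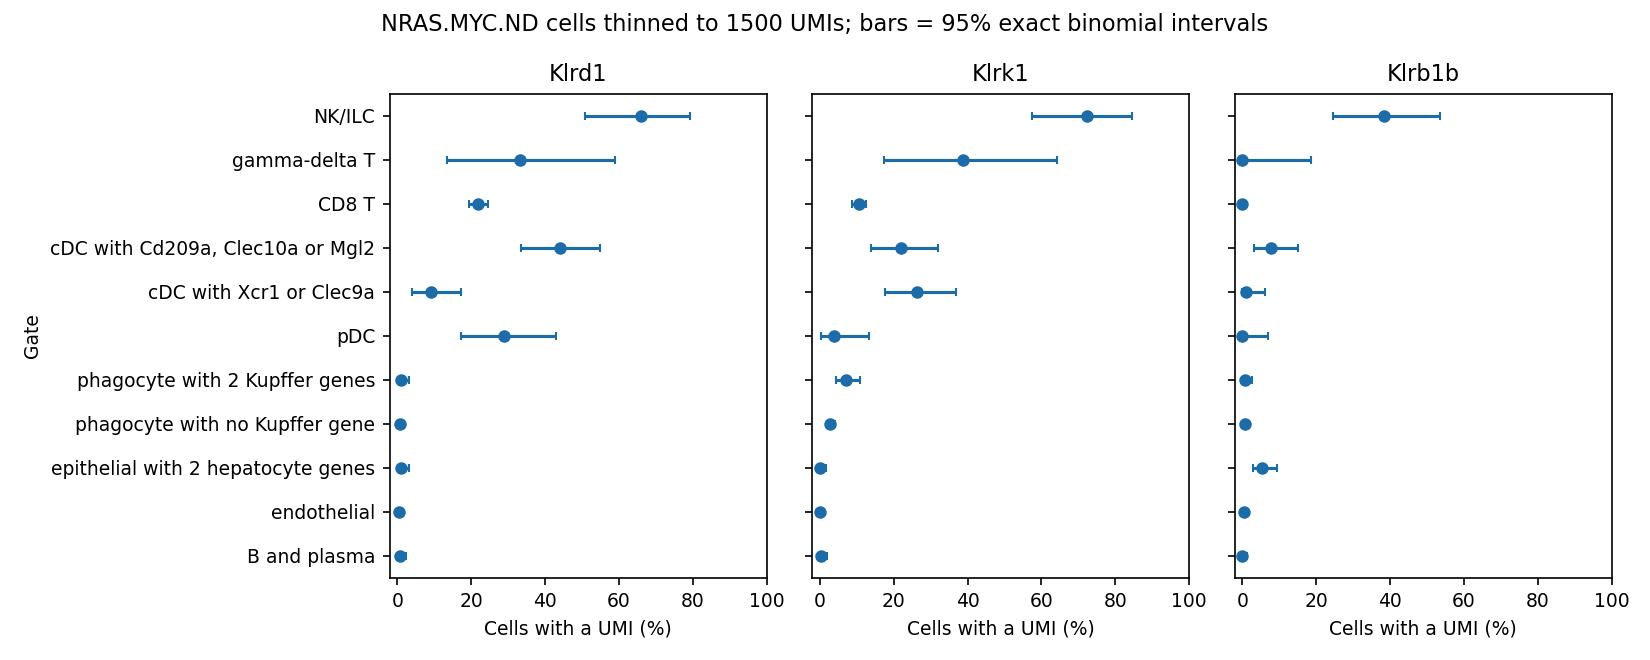
Share of NRAS.MYC.ND cells with a UMI of the genes shown (horizontal axis, %) by gate or subset (vertical axis), after thinning to 1500 UMIs per cell, with 95% exact binomial intervals. Klrd1 is seen in 44.0% of the cDC with type 2 genes and 9.20% of those with type 1 genes, while Klrk1 is at 22.0% and 26.4%.

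Phagocytes held Klrk1 at a low level that differed between the libraries. In NRAS.MYC.ND 436 UMIs lay in 294 of 1454 cells (35.5 CPM), and in AKT1.MYC 27 UMIs in 24 of 3249 cells (2.02 CPM), a log2 ratio of -4.14 (-4.76 to -3.58). Cells with at least 2 of the Kupffer cell genes Clec4f, Vsig4, Timd4, Cd5l and Marco had 51.2 CPM in NRAS.MYC.ND, those with 1 had 35.8 and those with none 26.6, and the first level was 1.93-fold the last. Kupffer-gene phagocytes of AKT1.MYC had 5.83 CPM, and the log2 ratio between libraries within these cells was -3.13 (-4.37 to -2.13). Of 5 receptors measured in phagocytes, with at least 10 UMIs over both libraries, 4 were past 2-fold towards NRAS.MYC.ND (Klrk1, Klrc1, Klrd1 and Klrb1b), with 0 towards AKT1.MYC, beside 9.27% and 17.7% of all measured genes. With the first gate Klrk1 was at -3.34 (-3.76 to -2.94), Klrc1 at -1.64 (-3.72 to 0.05) and Klrb1b at -0.99 (-1.58 to -0.43), just short of 2-fold. The T cell gene Cd3e moved the same way, from 12.9 CPM in phagocytes of NRAS.MYC.ND to 0.373 in those of AKT1.MYC, and its part in the result was not tested. At equal depth 7.12% of NRAS.MYC.ND phagocytes with Kupffer genes had a Klrk1 UMI, against 2.89% of those with none.

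In epithelial cells 5 of 6 measured receptors were past 2-fold towards NRAS.MYC.ND, with 0 towards AKT1.MYC, beside 13.6% and 16% of all measured genes. The log2 ratio was -5.34 (-6.22 to -4.55) for Klrb1b, -3.34 (-4.80 to -1.98) for Klrd1 and -6.62 (-12 to -3.94) for Klra4, which had 9 of its 17 NRAS.MYC.ND UMIs in 1 cell. The intervals of the other two, Klrk1 (-1.53, -3.21 to 0.37) and Klrb1c (-1.11, -3.17 to 1.44), included no difference and rested on 5 and 3 UMIs in NRAS.MYC.ND. With the first gate the ratio was -4.56 for Klrb1b, -2.31 for Klrd1, -5.59 for Klra4 and -0.20 for Klrb1c, no longer past 2-fold. Cd3e was at 14.1 and 0.403 CPM in the same gates, and its part in the values of Klrd1 and Klrk1 was not tested. In cDC 1 of 4 measured receptors, Klrk1 (log2 -1.24, -1.90 to -0.66), was past 2-fold towards NRAS.MYC.ND, with 0 towards AKT1.MYC, beside 13.6% and 10.1% of all measured genes. The ratio was -0.88 (-1.52 to -0.30) for Klrd1 and 0.87 (-0.21 to 1.81) for Klrb1b. With the first gate cDC of AKT1.MYC held 1 UMI each of Klrk1 and Klrd1, with ratios of -1.01 (-6.32 to 1.49) and -0.05 (-5.37 to 2.46).

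Within NRAS.MYC.ND, 9 of the 10 receptors were at least 2-fold higher in NK/ILC than in CD8 T cells and 0 were higher in CD8 T cells, beside 14.2% and 8.86% of all measured genes. The receptors separated into those that CD8 T cells nearly lacked and those that they shared at a lower level. In the first set Klra4 was 378-fold and Klra8 203-fold higher in NK/ILC cells at the limit that 0 UMIs in CD8 T cells allow. Counting error of the NK/ILC cells was left out of these values. The level in NK/ILC cells was 237-fold higher for Klrb1b, 172-fold for Klrb1c and 44.7-fold for Klra7. In the second it was 9.6-fold for Klre1, 8.38-fold for Klrk1, 6.21-fold for Klrc1 and 3.94-fold for Klrd1. Klrg1 fell on neither side, with a log2 ratio of -0.69 (-6.03 to 1.86).

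In AKT1.MYC 8 of 9 measured receptors were at least 2-fold higher in NK/ILC cells and 0 in CD8 T cells, beside 9.68% and 10% of all measured genes. At the limit that 0 UMIs in CD8 T cells allow, the level in NK/ILC cells was 11.2-fold higher for Klra4 and 12.1-fold for Klrb1b. Here too counting error of the NK/ILC cells was left out. The level in NK/ILC cells was 25.2-fold higher for Klra7, 14.0-fold for Klra8, 5.95-fold for Klre1, 4.58-fold for Klrk1, 4.48-fold for Klrb1c and 2.47-fold for Klrd1. Klrc1 differed by 1.63-fold. Whether the NK/ILC to CD8 T ratios differ between the models was not tested.

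Between the libraries, 3 of 9 measured receptors were at least 2-fold higher in NK/ILC cells of NRAS.MYC.ND and 0 in those of AKT1.MYC, where 21.5% and 10.9% of all measured genes were. The 3 were Klrb1c (log2 ratio of AKT1.MYC over NRAS.MYC.ND -1.91, -2.77 to -1.13), Klrc1 (-1.58, -3.0 to -0.37) and Klrk1 (-1.02, -1.51 to -0.54). Klrd1 was just under 2-fold lower in AKT1.MYC (-0.92, -1.50 to -0.37). Klrg1 was not counted as measured, with 7 UMIs in AKT1.MYC against 1 in NRAS.MYC.ND, under the minimum of 10 UMIs. Its ratio was 3.38 (0.42 to 8.87), towards AKT1.MYC. The intervals of Klra4 (-0.13, -0.93 to 0.64), Klra7 (-0.58, -1.47 to 0.25), Klra8 (-0.50, -1.75 to 0.65), Klrb1b (-0.34, -1.09 to 0.37) and Klre1 (-0.51, -1.44 to 0.36) included no difference, and these counts leave differences of the widths given undecided. The median over the measured receptors was -0.58, beside -0.17 over all measured genes. Lineage markers summed lower and phagocyte markers higher in the NK/ILC gate of AKT1.MYC, as given above. With the first gate, where AKT1.MYC had 2 NK/ILC cells, Klrb1c alone was past 2-fold towards NRAS.MYC.ND, with 0 receptors towards AKT1.MYC, beside 9.84% and 16.5% of genes.

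In CD8 T cells 1 of 7 measured receptors, Klrb1c, was past 2-fold towards AKT1.MYC, with 0 towards NRAS.MYC.ND, beside 13.5% and 11.2% of all measured genes. Its log2 ratio was 3.36 (1.55 to 4.89), from 5 UMIs in 4 of 36 cells against 15 UMIs in 10 of 1049. Phagocytes of AKT1.MYC held Klrb1c at 0.448 CPM. Ratios of the receptors that CD8 T cells carried most often lay near 0, at -0.25 (-0.95 to 0.38) for Klrd1, -0.14 (-0.99 to 0.59) for Klrk1, 0.35 (-1.12 to 1.51) for Klrc1 and 0.18 (-1.72 to 1.58) for Klre1. Klra7, with 1 UMI in AKT1.MYC, had a ratio of 0.24 (-5.11 to 2.85). The median was 0.21, beside 0.03 over all measured genes. With the first gate the ratio of Klrb1c was 2.14 (-3.26 to 4.86), from 1 UMI against 14, and its interval included no difference. Klrb1c alone was past 2-fold towards AKT1.MYC there, with 0 receptors towards NRAS.MYC.ND, beside 15.3% and 7.74% of genes.

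**Figure D4:**
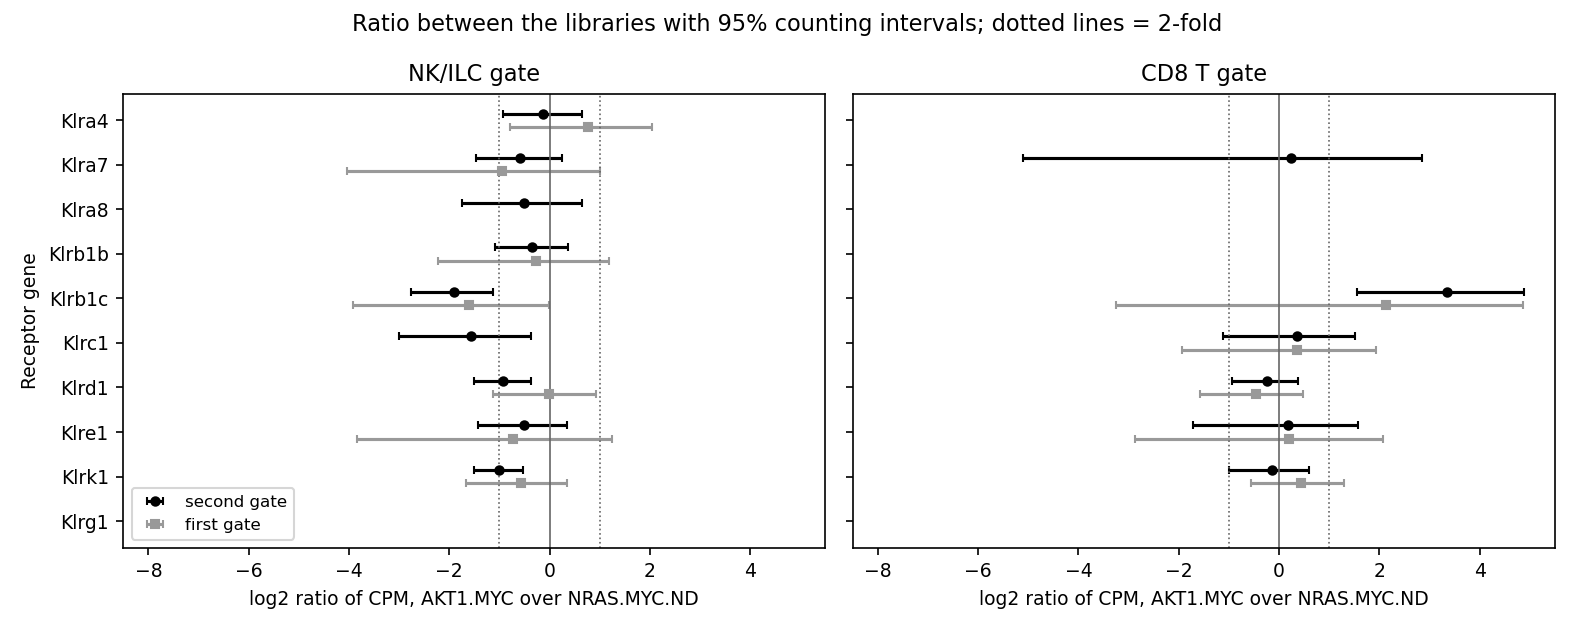
Log2 ratio of CPM, AKT1.MYC over NRAS.MYC.ND (horizontal axis), for each receptor gene in the NK/ILC and CD8 T gates, with 95% counting intervals and dotted lines at 2-fold. Klrb1c lies at -1.91 in NK/ILC cells and at 3.36 in CD8 T cells.

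Single cells of the NK/ILC gate showed several receptors at once. After thinning to 1500 UMIs, a median of 3 of the 10 genes was seen per cell in both libraries, with a maximum of 6. In NRAS.MYC.ND 33 of 47 cells (70.2%) showed at least 3 and none showed 0, and in AKT1.MYC 10 of 17 cells (58.8%) showed at least 3 and 1 showed 0. Of 1029 CD8 T cells in NRAS.MYC.ND, 686 (66.7%) showed none and 16 (1.56%) at least 3, and of 35 in AKT1.MYC, 23 showed none. Of 221 cDC in NRAS.MYC.ND 117 (52.9%) showed none, with a maximum of 2.

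**Figure D5:**
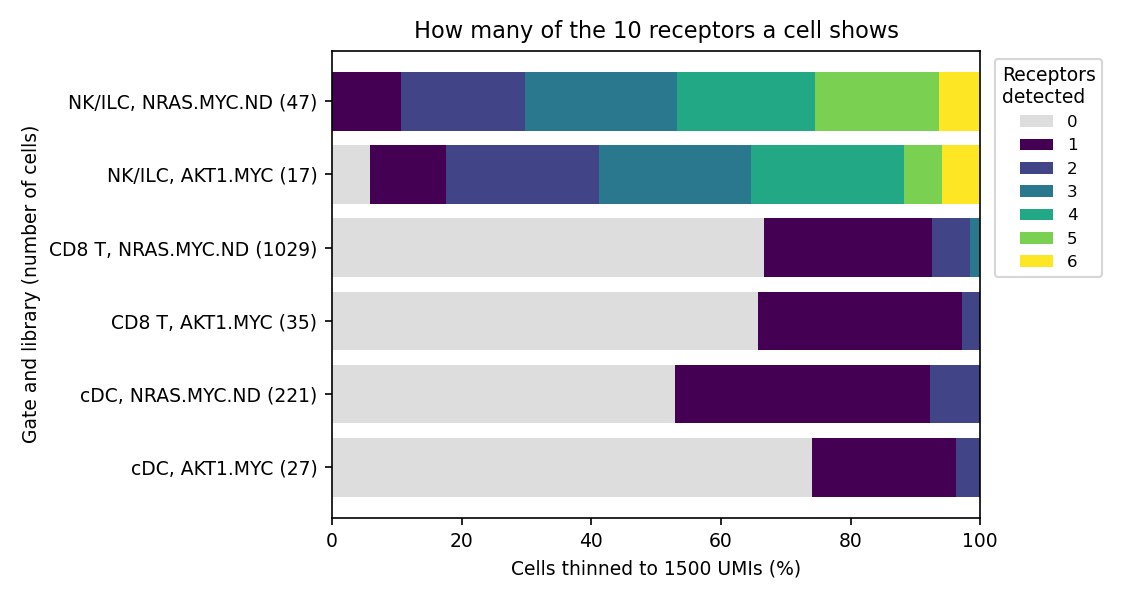
Share of cells (horizontal axis, %) by the number of the 10 receptor genes seen per cell after thinning to 1500 UMIs, for 3 gates and 2 libraries (vertical axis, with cell numbers). In NRAS.MYC.ND 70.2% of NK/ILC cells show at least 3 receptors, against 1.56% of CD8 T cells.

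Within the NK/ILC gate of NRAS.MYC.ND the Ly49 genes Klra4 and Klra7 occurred together and the inhibitory gene Klrb1b occurred apart from the Ly49 genes. At equal depth Klra4 was seen in 5 of 8 cells with Klra7 (62.5%, 24.5 to 91.5) and 4 of 39 without (10.3%, 2.87 to 24.2). With Klra8 it was seen in 3 of 5 cells (14.7 to 94.7) and without Klra8 in 6 of 42 (5.43 to 28.5). Klra7 was seen in 3 of 5 cells with Klra8 (14.7 to 94.7) and 5 of 42 without (3.98 to 25.6). Both pairs of intervals by Klra8 overlapped. Klrb1b was seen in 0 of 13 cells with a UMI of Klra4, Klra7 or Klra8, which allows a share of up to 23.1%, and in 18 of 34 cells without (52.9%, 35.1 to 70.2). With all UMIs it was seen in 6 of 23 cells with a Klra UMI (26.1%, 10.2 to 48.4; 147 CPM) and 20 of 29 without (69.0%, 49.2 to 84.7; 506 CPM). Klrb1b thus marked mainly the cells in which no Klra transcript was detected. In AKT1.MYC, at equal depth, Klrb1b was seen in 1 of 7 cells with a Klra UMI and 7 of 10 without, and with all UMIs in 4 of 8 and 8 of 9. The order was the same in both libraries, and the intervals of the AKT1.MYC shares overlapped.

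The cells with and without a Klra UMI also differed in some, but not all, of the genes that separate NK cells from ILC1. This split and these genes were chosen after values were seen, and no test was made. In NRAS.MYC.ND, with all UMIs, the NK cell transcription factor Eomes was seen in 14 of 23 cells with a Klra UMI and 2 of 29 without, and the granzyme gene Gzma in 22 and 8. The cytokine receptor gene Il7r was seen in 3 of 23 and 18 of 29, Tmem176b in 2 and 19, and the transcription factor gene Rora in 0 and 8. Ncr1, the NKp46 gene shared by NK cells and ILC1, was seen in 14 of 23 and 18 of 29, and Klrd1 in 18 and 19. Itga1, an ILC1 integrin gene, was seen in 2 of 23 and 2 of 29 and showed no such split. Of transcription factor genes not taken here to separate NK cells from ILC1, Tbx21 was seen in 7 and 7, Gata3 in 8 and 10 and Tcf7 in 7 and 10. Eomes and Gzma are among the 7 genes of the gate, so cells with neither needed 2 of the others. In AKT1.MYC Il7r was seen in 1 of 8 cells with a Klra UMI and 4 of 9 without, and Rora in 1 and 5, while Eomes, in 4 and 3, and Tmem176b, in 6 and 8, differed less.

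The other receptors were less unequal between these classes. In NRAS.MYC.ND Klrc1 was at 239 CPM with and 222 CPM without a Klra UMI, and Klrd1 at 902 and 678. Klrk1 was at 773 (557 to 1045) and 1295 CPM (1059 to 1567), Klrb1c at 423 (268 to 635) and 814 (629 to 1035), and Klre1 at 368 (225 to 568) and 197 (113 to 320). The intervals of Klrk1 did not overlap, and at equal depth its shares of cells were close, 9 of 13 and 25 of 34.

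CD8 T cells of NRAS.MYC.ND with Klrk1 more often showed Klrd1 and Klre1, while no difference was resolved for Klrc1 or Klrg1. At equal depth Klrd1 was seen in 48 of 109 cells with Klrk1 (44.0%, 34.5 to 53.9) and 178 of 920 without (19.4%, 16.8 to 22.1), and Klre1 in 13 of 109 (11.9%) and 16 of 920 (1.74%). Klrc1 was seen in 5 of 109 (4.59%, 1.51 to 10.4) and 41 of 920 (4.46%, 3.22 to 6.0). Klrg1 was seen in 1 of 109 (0.917%, 0.0232 to 5.01) and 15 of 920 (1.63%, 0.915 to 2.68). Klre1 was likewise seen in 18 of 226 cells with Klrd1 (7.97%) and 11 of 803 without (1.37%). Klrc1, the partner of Klrd1 in the NKG2A receptor, showed no such pattern, with 11 of 226 cells with Klrd1 (4.87%) and 35 of 803 without (4.36%). In cDC Klrd1 and Klrk1 showed none either, since Klrd1 was seen in 13 of 53 cells with Klrk1 (24.5%) and 46 of 168 without (27.4%).

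CD8 T cells of NRAS.MYC.ND were also split at equal depth by Gzma, a granzyme gene of effector cells. Klrd1 was seen more often in the 173 CD8 T cells with Gzma (30.1%, 23.3 to 37.5) than in the 856 without (20.3%, 17.7 to 23.2), and Klrk1 at 8.67% and 11% was not.

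Among 17 other killer lectin-like receptors in the files, 8 were measured in NK/ILC cells, of which 6 were past 2-fold towards NRAS.MYC.ND, led by Klra1 (-2.60), Klrb1f (-2.19) and Klri2 (-2.17), a partner of Klre1, and 1 towards AKT1.MYC (Klra3, 1.57, from 12 against 6 UMIs). Their median was -1.87. Of all genes measured in NK/ILC cells, 21.5% were past 2-fold towards NRAS.MYC.ND and 10.9% towards AKT1.MYC. Klrc2, the activating NKG2C partner of Klrd1, was at 332 and 132 CPM (-1.34). In CD8 T cells 5 were measured, with 3 past 2-fold towards AKT1.MYC (Klra1, Klra6 and Klra9) and 0 towards NRAS.MYC.ND. The shares of all measured genes there were 13.5% and 11.2%. The ratios of Klra1 and Klra9 rested on 2 UMIs and 1 UMI in AKT1.MYC, and Klrc2 was at 39.6 and 47.0 CPM.

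Of 11 adapter and signalling genes measured in NK/ILC cells, 2 were past 2-fold towards NRAS.MYC.ND (Lcp2 -1.52, Vav1 -1.02) and 1 towards AKT1.MYC (Sh2d1a 1.43), shares close to the 21.5% and 10.9% of all measured genes, and their median was -0.42. Tyrobp, the DAP12 gene, had a ratio of -0.29 at 2067 and 1688 CPM, Fcer1g -0.29, and Hcst, the DAP10 gene, -0.42 (-0.89 to 0.04) at 893 and 669 CPM. In CD8 T cells 5 of 13 were higher in NRAS.MYC.ND (Zap70 -2.27, Vav1 -2.20 and Sh2d1a -1.98 first) and 2 in AKT1.MYC (Tyrobp 1.91, Fcer1g 1.62). The shares of all genes measured in CD8 T cells were 11.2% and 13.5%. Hcst in CD8 T cells was at 753 CPM in NRAS.MYC.ND against 861 in AKT1.MYC. Phagocytes carry both Tyrobp and Fcer1g, and phagocyte markers in these CD8 T cells were at 635 and 3006 CPM as given above, whose part was not tested. Within NRAS.MYC.ND, Tyrobp (4.46) and Fcer1g (4.25) were higher in NK/ILC than in CD8 T cells, while Hcst differed little (0.25, -0.03 to 0.51).

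Of the ligands of killer lectin-like receptors, in and outside the 10 described here, 17 of 20 listed genes were in the files. In epithelial cells 11 were measured, 5 of them past 2-fold towards NRAS.MYC.ND, with 0 towards AKT1.MYC. The shares of all genes measured there were 13.6% and 16%. The Qa-1 gene H2-T23, whose product Klrd1 and Klrc1 read, was at 114 CPM in NRAS.MYC.ND against 21.2 in AKT1.MYC (-2.42), B2m at 2021 and 511 (-1.98), and Clec2i at 1.43 and 0.310 (-2.21, from 8 and 10 UMIs). The NKG2D ligand gene Raet1e was at 9.84 and 12.8 CPM, the Klrb1b ligand gene Clec2d at 13.6 and 12.7, and Cdh1, the E-cadherin gene whose product Klrg1 binds, at 119 and 208. In phagocytes 12 were measured, 4 of them higher in NRAS.MYC.ND (H2-T23 -2.45, B2m -1.64, Clec2i -1.51, H2-D1 -1.15) and 4 in AKT1.MYC (Raet1d 4.58, Cdh1 3.51, Cdh2 2.67, Raet1e 2.38). The shares of all genes measured in phagocytes were 9.27% and 17.7%. Cdh1 is an epithelial gene and one of the markers of the epithelial gate.

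Other NK cell genes moved unevenly with the receptors in the NK/ILC gate. The counts below stand beside 21.5% of all measured genes past 2-fold towards NRAS.MYC.ND and 10.9% towards AKT1.MYC. Of 7 other NK receptors measured, 5 were past 2-fold towards NRAS.MYC.ND (Cd160 -2.75, Ncr1 -2.17 and Cd96 -2.02 first) and 1 towards AKT1.MYC (Fcgr3 2.74, also a phagocyte gene). Of 8 effector genes 1 was higher in each library, Xcl1 in NRAS.MYC.ND (-1.80) and Gzma in AKT1.MYC (2.38), at 1757 and 9153 CPM. Of 9 transcription factors 6 were higher in NRAS.MYC.ND (Gata3 -3.19, Tox, at 0 UMIs in AKT1.MYC, and Tcf7 -1.69 first) and 1 in AKT1.MYC (Nfil3 1.57). Itga2 (-1.43) and Klf2 (-1.34), genes of circulating NK cells, and 3 of 6 measured genes of ILC1 (Gpr183 -2.34, Cxcr6 -2.13, Il7r -1.24) were past 2-fold towards NRAS.MYC.ND. Ncr1, Xcl1 and Gzma are gate genes.

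In CD8 T cells 5 of 11 effector genes were higher in NRAS.MYC.ND (Gzmk -1.92, Ifng -1.49 and Prf1 -1.45 first) and 0 in AKT1.MYC, 6 of 10 transcription factors were higher in NRAS.MYC.ND (Prdm1 -3.46, Tox -2.68 and Eomes -1.72 first) and Tcf7 (1.05) in AKT1.MYC. Of 9 other NK receptors, 3 were higher in NRAS.MYC.ND (Slamf7 -2.59, Cd96 -1.49, Cd160 -1.10) and Fcgr3 (2.66) in AKT1.MYC. Itgam (3.36), a gene of circulating NK cells, and 4 of 8 genes of ILC1, led by Tmem176a (3.34), Tmem176b (3.02) and Il7r (1.22), were higher in AKT1.MYC, beside Cxcr6 (-1.79) and Cd200r1 (-1.58) in NRAS.MYC.ND. Itgam and the Tmem176 genes are also carried by phagocytes. These counts in CD8 T cells stand beside 11.2% of all measured genes past 2-fold towards NRAS.MYC.ND and 13.5% towards AKT1.MYC.

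Over 21 gates by library with at least 30 cells, the genes whose log2(CPM + 5) was most like that of a receptor were mostly other lymphoid genes. These correlations describe a few gates that share libraries, and the NK/ILC gate of NRAS.MYC.ND weighs heavily in them. Klra4 was most like Ncr1 (Pearson r 0.981) and Klrb1a (0.977), Klra7 like Samd3 (0.946) and Klra8 like Klra9 (0.917), with which it shares sequence. Klrb1b was most like Clnk (0.909), an adapter gene, and Klri2 (0.904), and Klrb1c like Klrc2 (0.944). Klrc1 was most like Prf1 (0.969), the perforin gene, Klrc2 (0.968) and Cd160 (0.964), and Klre1 like Klrc2 (0.976). Klrd1 was most like Cd7 (0.923) and Spn (0.877), Klrk1 like Ccl5 (0.882) and Cxcr3 (0.878), and Klrg1 like 2010016I18Rik (0.933), Tnfsf8 and Izumo1r (both 0.925).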

How the data were processed

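Dissociated tumours were passed through a 70 um strainer, live cells were enriched, and 10x Chromium 3′ libraries were made, per the labels' protocols. The deposited matrices hold raw UMI counts, already filtered to cells, which the authors made against mm10 with Cell Ranger 6.1.2 per the submitters' processing notes and 6.1.1 per the file headers. The release of the annotation was not given in the sources used here. Barcodes with under 500 UMIs, under 250 genes or over 20% mitochondrial UMIs were left out (351 in NRAS.MYC.ND, 456 in AKT1.MYC). The automatic doublet threshold of Scanpy's Scrublet marked 0.0158% and 0% of cells and so failed, and the top scores at 0.8% per 1000 cells (295 and 852 cells) were removed. The libraries shared 17 barcodes, 14 of them among kept cells.

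A cell took the lineage with most of up to 12 markers, at least 3 and 2 ahead of the next. UMIs were summed per gate and given as CPM with 95% intervals for counting error only. A gene needed 10 UMIs over both sides to be measured and was called at 2-fold. A count of 0 was given the limit of 3 counts. With 1 library per group no test was made. Shares were compared in cells thinned to 1500 UMIs. Described genes were the 10 receptors, up to 3 per direction from each of 8 lists, and the 3 most alike genes, of which the leading ones are named. Further list members are named by value where a ligand, adapter, partner or NK/ILC gene bears on a receptor, and were chosen after values were seen. The receptors and lists were chosen with earlier results of these data known, and the gate used, the dendritic, phagocyte and epithelial subsets and the split by Klra genes were chosen after seeing the data. Scripts ran in Python 3.11.15 with NumPy 2.4.6, SciPy 1.17.1 and Scanpy 1.11.5 and were tested on simulated data. Some genes, and subsets that rest on them, are not reported here.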

Additional observations from a re-analysis of the deposited data

Results flagged for a closer look

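Klrb1c, the NK1.1 gene, moved in opposite directions in the gates of the same 2 libraries. Its log2 ratio of AKT1.MYC over NRAS.MYC.ND was 3.36 in CD8 T cells, from 5 UMIs in 4 cells against 15 UMIs in 10 cells, and -1.91 in NK/ILC cells, from 16 UMIs in 10 cells against 89 UMIs in 40 cells. With 1 library per group the difference between the gates was not tested.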

How the results depend on the processing

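Counts of receptors at least 2-fold apart rested on few AKT1.MYC cells. With the first gate, the number higher in NK/ILC cells of NRAS.MYC.ND was 1, and became 3 with a lineage lead of 1 marker, 2 with an NK/ILC gate by Ncr1, 3 with the mean of per-cell CPM, 4 with median-of-ratios scaling, 0 in thinned cells and 3 with the second gate. The number higher in NK/ILC cells of AKT1.MYC was 0, and became 1 with the Ncr1 gate, in thinned cells or with a minimum of 1 UMI. The number higher in CD8 T cells of AKT1.MYC was 1, and became 0 in thinned cells and 2 with free RNA subtracted. The number higher in CD8 T cells of NRAS.MYC.ND was 0 under each alternative run. With the second gate, the 1 receptor higher in CD8 T cells of AKT1.MYC became 2 with a lead of 1 marker or the mean of per-cell CPM, the 3 higher in NK/ILC cells of NRAS.MYC.ND became 5 in thinned cells, and the 0 higher in AKT1.MYC became 1 with a minimum of 1 UMI. The cause was not tested. Over 15 receptor ratios with 178 alternative values, 172 lay within the reported interval and 6 (all in NK/ILC cells) did not. No ratio past 2-fold changed sign, but 5 smaller ones did under at least 1 alternative: Klra4 (up to 0.77, first gate), Klra7 (0.05, thinned cells) and Klre1 (0.01, Ncr1 gate) in NK/ILC cells, and Klrk1 (0.45, first gate) and Klre1 (-0.02, mean of per-cell CPM) in CD8 T cells. Klrb1c ranged from 2.14 to 3.69 in CD8 T and from -2.03 to -1.55 in NK/ILC cells, Klrc1 in NK/ILC cells from -2.78 to -0.04 and Klrk1 from -1.37 to -0.44. The -0.04 of Klrc1 is a limit and not a measured ratio. It came from 0 UMIs in the 2 AKT1.MYC cells of the first gate against 28 UMIs in NRAS.MYC.ND. No paired analysis was possible because each group has 1 library, and no library could be left out.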
